A study of Mus musculus with 4 samples.

Results

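The genes described here are 39 genes of DNA replication, from the proteins that mark and license origins to the enzymes of the moving fork and those that supply its nucleotides. They were chosen by symbol, and all 39 had a row among the 37991 Ensembl genes of the deposited RNA-seq count table. The table holds mouse embryonic stem cells (mESC) of 2 genotypes, with 2 libraries labelled as replicates for each. The dKO cells are null for the B-type lamins, the nuclear lamina proteins encoded by Lmnb1 and Lmnb2, and the wt cells are wild type. All 4 libraries carry the strain label ZHBTc4, the name of an embryonic stem cell line in which a tetracycline-repressible transgene supplies Oct4 in place of the disrupted endogenous gene. No separate clones are named within a genotype, so an effect of lamin loss and a difference between cell lines cannot be told apart, and p-values measure only the spread between these libraries.

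Total counts per library ranged from 12899964 to 16697970, and 14027 genes passed the filter on low counts. Levels are CPM (counts scaled to library size) adjusted between libraries by the trimmed mean of M values (TMM). The deleted genes followed the labels: Lmnb1 had 4.24 and 6.03 CPM in dKO against 668 and 547 CPM in wt libraries, and Lmnb2 had 2.52 and 3.28 CPM in dKO against 105 and 117 CPM in wt libraries. All 16 stem cell markers passed the filter, with Pou5f1 (Oct4) at 790.2 and 822 CPM in dKO and 876 and 751 CPM in wt cells. Their summed level was 8643 and 9345 CPM in dKO and 7591 and 8067 CPM in wt cells, and 8 of the 16 had positive and 8 negative log2 fold changes. Zfp42 (Rex1) carried most of the higher dKO sum, at 1449 and 1435 CPM in dKO against 665.7 and 613 CPM in wt libraries (log2 fold change 1.17, adjusted p = 0.0886). Fgf4 at 0.76 and Klf4 at 0.57 also had an unadjusted p under 0.05. Of 16 fibroblast and feeder markers 10 passed the filter, Fap and S100a4 had 0 counts in every library, and Col1a1 had at most 2.83 CPM. Fn1 and Vim made up most of the fibroblast sum of 1458 and 1745 CPM in dKO and 1222 and 1591 CPM in wt libraries. Fn1 was higher on average in dKO, while 8 of the 10 tested fibroblast markers had negative values, with a median of -0.42. Markers of differentiated cells, of which 13 passed, summed to 302 and 512 CPM in dKO and 439 and 673 CPM in wt libraries, with 5 positive and 8 negative values. The keratins Krt8 and Krt18, at -0.65 and -0.56, carried most of the lower dKO sum. Among endoderm genes Gata4, Gata6 and Sox17 had 0.55, 0.53 and 0.50 (SE 0.34, 0.49 and 0.65), and Foxa2 had -0.05 (SE 0.58). All of these endoderm genes were low, with at most 7.55 CPM in any library. The part of these markers in the results on replication genes was not tested.

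Replication starts at origins, where the origin recognition complex (ORC), Cdc6 and Cdt1 load the MCM2-7 helicase in G1 phase. In S phase the kinase Cdc7 with Dbf4 helps to turn the loaded helicase into the active form, joined by Cdc45 and the GINS complex, and polymerase alpha with primase starts each strand. Embryonic stem cells divide fast, with a short G1 phase and a large share of cells in S phase, and many replication genes are known targets of E2F transcription factors.

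The promoters of the replication genes were searched for short motifs, which the choice of genes did not use. RefSeq windows of 300 bases (250 before to 50 after the annotated start, build GRCm38.p6) were found for 31 of the 39 genes, 37 windows in all, since 5 genes had more than 1 window and some of these overlap. An E2F motif was searched in the forms TTTCCCGC, TTTCGCGC, TTTGCCGC and TTTGGCGC on both strands. It was present in 12 of 37 windows of the replication genes (32.4%), against 524 of 13475 windows of all genes tested for expression (3.89%) and 744 of 32851 windows of all genes (2.26%). Other genes of replication, described at the end, had it in 23 of 119 windows (19.3%). The CCAAT box, letters CCAAT on either strand, was in 22 of the 37 windows (59.5%), against 37.7% of windows of tested genes and 37.4% of all windows. The GC box (GGGCGG, either strand) was in 75.7% of the replication windows, against 62.2% of those of tested genes and 35.7% of all windows. The cell cycle homology region (TTTGAA, either strand) was in 18.9%, against 11.8% and 17.9%. A match is a run of letters and not a measured binding site.

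Before the start, 8 genes had an E2F match, and those stretches are shown so that the matches can be read in their place. They lie at chr4:108579394-108579453 (Orc1, plus strand), chr4:34614950-34615009 (Orc3, minus), chr11:98907987-98908046 (Cdc6, plus), chr8:75109332-75109391 (Mcm5, plus), chr1:128359735-128359825 (Mcm6, minus), chr5:138172015-138172074 (Mcm7, minus), chr8:95633492-95633551 (Gins3, plus) and chrX:93632260-93632319 (Pola1, minus), all in GRCm38.p6. Each is written in the direction of transcription, and capitals mark the E2F match.
Orc1: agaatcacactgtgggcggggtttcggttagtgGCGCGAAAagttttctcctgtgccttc
Orc3: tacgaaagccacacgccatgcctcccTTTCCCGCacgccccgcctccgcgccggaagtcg
Cdc6: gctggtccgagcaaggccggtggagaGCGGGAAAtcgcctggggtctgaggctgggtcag
Mcm5: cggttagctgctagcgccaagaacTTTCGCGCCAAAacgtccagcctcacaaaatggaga
Mcm6: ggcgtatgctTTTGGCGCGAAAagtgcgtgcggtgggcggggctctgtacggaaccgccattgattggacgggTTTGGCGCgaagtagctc
Mcm7: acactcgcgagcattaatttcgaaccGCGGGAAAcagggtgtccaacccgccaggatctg
Gins3: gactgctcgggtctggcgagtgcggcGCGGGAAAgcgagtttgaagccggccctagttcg
Pola1: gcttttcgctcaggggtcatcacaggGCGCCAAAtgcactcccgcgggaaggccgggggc

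In Mcm5 and in the upstream site of Mcm6 a match on each strand overlapped, which gives the longer capital runs. Mcm6 had 3 matches, beginning 110, 106 and 47 bases before the start. The other 4 genes with a match, Cdt1, Mcm3, Pold1 and Pole2, had it only after the start, and Mcm7 had a second match there. Of the 31 genes with a window 20 had a CCAAT box and 7 had both motifs.

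**Figure D1:**
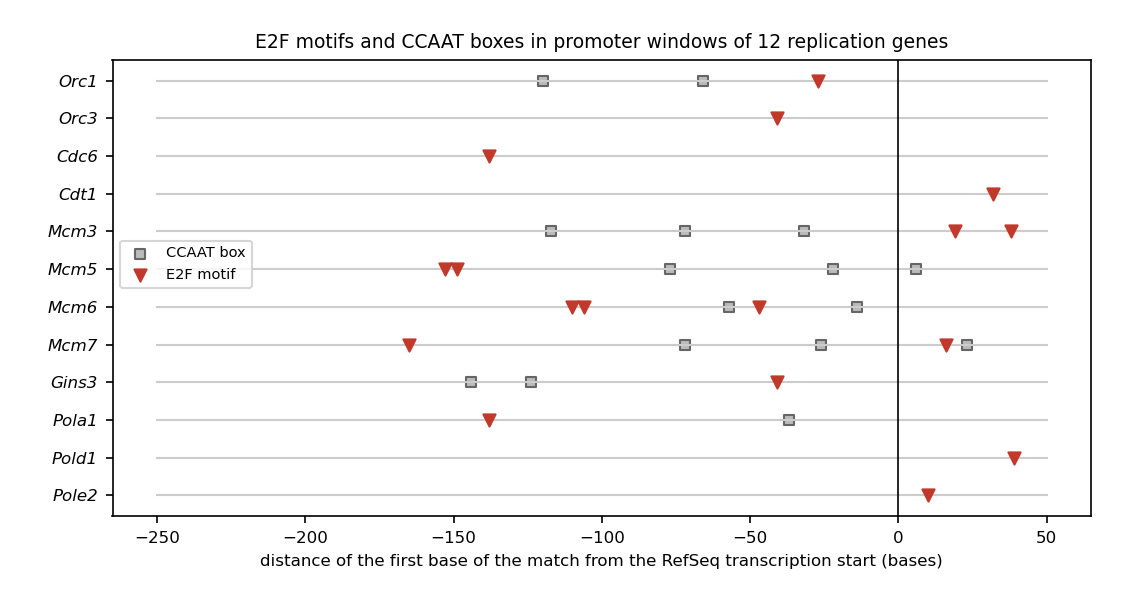
Positions of E2F motifs (triangles) and CCAAT boxes (squares) in the promoter windows of the 12 replication genes with an E2F match, as the distance in bases of the first base of each match from the RefSeq start. Each grey line is a window of 250 bases before to 50 after the start (for Mcm7 the window with the E2F matches), and Mcm3, Mcm5, Mcm6 and Mcm7 each carry at least 2 E2F matches.

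The comparison of dKO with wt cells asks whether embryonic stem cells without B-type lamins differ in transcript levels. None of the 39 replication genes passed an adjusted p of 0.05 over all tested genes in edgeR's quasi-likelihood test with genotype as the only term, where 12 of 14027 genes did (0.0855%). DESeq2 and limma-voom called 0 of the 39 as well. The result depends on the model: a fit with a replicate block, given further below, called 1299 genes (9.26%) and 1 of the 39, Pola1 (edgeR adjusted p = 0.0288). At an unadjusted p under 0.05 in edgeR there was 1 replication gene, Pola1, against 782 genes in all (5.57%). Log2 fold changes (dKO minus wt) lay between -0.27 (Pold2) and 0.31 (Pola1), 22 were positive (56.4%, against 49.7% of tested genes) and 17 negative, and their median was 0.02, against -0.002 for all tested genes. The 95% interval stayed within 1.5-fold in either direction for 35 of the 39 genes, against 37.2% of tested genes, and within 2-fold for all 39, against 65.5%. These genes were also highly expressed, since their median level was 122 CPM against 21.6 CPM for tested genes, and 37 of 39 lay above that median. Both dKO libraries lay above both wt libraries for 9 replication genes (23.1%), against 17.2% of tested genes. Both lay below for 5 (12.8%), against 16.4%.

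**Figure D2:**
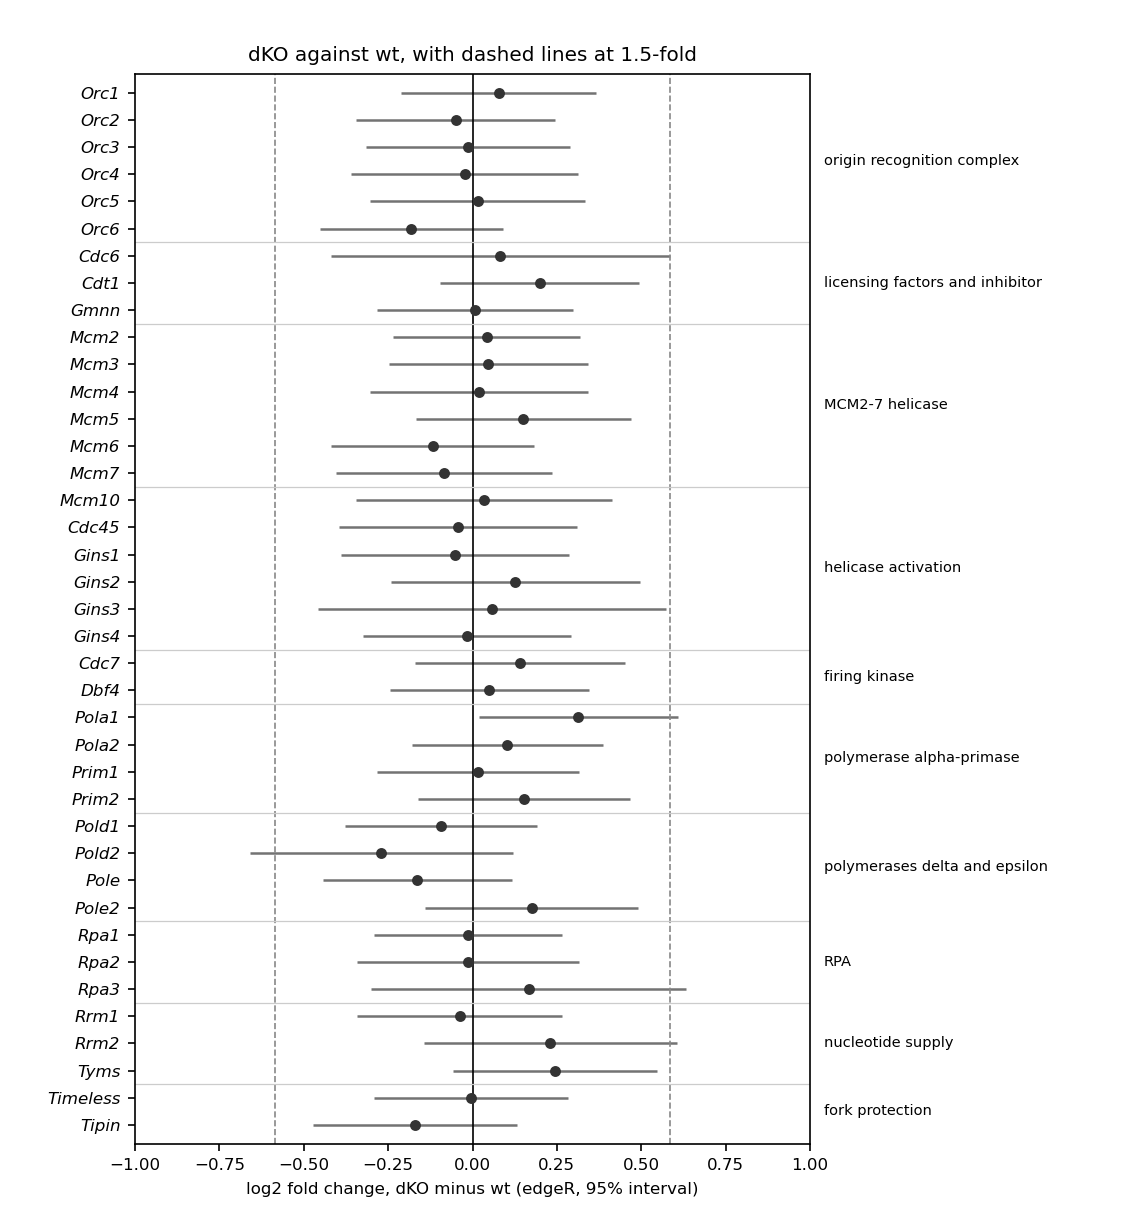
Log2 fold change of each of the 39 replication genes, dKO minus wt, with 95% intervals from edgeR (2 libraries per genotype) and dashed lines at 1.5-fold in either direction. All values lie between -0.27 and 0.31, and only the interval of Pola1 leaves out 0.

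ORC binds DNA at origins as a complex of the products of Orc1 to Orc6 and recruits the rest of the licensing machinery. Orc6, which takes part in helicase loading, had 116 and 114 CPM in dKO against 128 and 132 CPM in wt libraries. The genotypes did not overlap, and the log2 fold change was -0.18 (95% interval -0.45 to 0.09, adjusted p = 0.948). Orc1, the subunit that in mammals binds chromatin in a cell-cycle-dependent way, had 126 and 130.2 CPM in dKO against 127 and 116 CPM in wt libraries, with overlap (0.08, SE 0.12). Orc4, an ATPase-fold subunit of the ring, was the lowest of the complex, at 54.8 and 48.0 CPM in dKO and 53.9 and 50.6 CPM in wt libraries. Its log2 fold change was -0.02 (SE 0.14). The other ring subunits gave -0.05 for Orc2, -0.01 for Orc3 and 0.02 for Orc5, each with SE of 0.12 or 0.13 and overlapping genotypes. Exons of genes on the opposite strand overlap Orc1, Orc2, Orc4 and Orc6, and whether counting used strand is not given in the sources used here, so these counts are uncertain to that extent. Nif3l1 shares 1150 exonic bases with Orc2, and Vps35 shares 171 with Orc6.

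Licensing needs Cdc6 and Cdt1, and geminin (Gmnn) holds Cdt1 inactive after S phase begins. Cdt1 had 233 and 246 CPM in dKO against 219.6 and 198 CPM in wt libraries. Both dKO libraries were higher, by 0.20 on the log2 scale (95% interval -0.10 to 0.49, adjusted p = 0.947). Geminin had 83.4 and 83.2 CPM in dKO and 79.4 and 86.2 CPM in wt libraries, a log2 fold change of 0.01 (95% interval -0.28 to 0.30). Cdc6 had 60.8 and 78.3 CPM in dKO and 55.8 and 75.5 CPM in wt libraries. Replicate 2 was the higher library of Cdc6 in each genotype, so its replicates differed more than its genotypes did (0.08, 95% interval -0.42 to 0.58).

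The MCM2-7 ring, the replicative helicase, was the most abundant module, with a summed level of 3442 and 3693 CPM in dKO and 3388 and 3689 CPM in wt libraries. None of its 6 subunits passed the test, and 4 had positive and 2 negative values. Mcm5 had 657 and 751 CPM in dKO against 617 and 652 CPM in wt libraries, the highest log2 fold change of the ring at 0.15 (95% interval -0.17 to 0.47, adjusted p = 0.978). The lowest was that of Mcm6, with 382 and 417 CPM in dKO and 416 and 449.9 CPM in wt libraries (-0.12, 95% interval -0.42 to 0.18, adjusted p = 0.981). In both of these genes replicate spread was close in size to the genotype difference. Mcm7 had 821 and 868 CPM in dKO and 838 and 954 CPM in wt libraries (-0.09, SE 0.13). Its exons overlap Ap4m1 and Cops6 on the opposite strand by 321 and 64 bases. Mcm2 had 513 and 521 CPM in dKO against 497 and 507 CPM in wt libraries, no overlap but a difference of only 0.04 (SE 0.11). Mcm3, at 735 ± 26.2 CPM in dKO and 711 ± 38.4 CPM in wt, and Mcm4, at 367 ± 20.5 CPM in dKO and 362 ± 36.8 CPM in wt (SD, n = 2 each), gave 0.05 and 0.02.

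Helicase activation adds Cdc45 and the GINS subunits to the ring, and Mcm10 takes part in its opening. Here 3 of 6 genes had positive and 3 negative values, and in no gene were the genotypes separate. Gins2 had 47.9 and 56.9 CPM in dKO and 45.3 and 50.6 CPM in wt libraries (0.13, 95% interval -0.24 to 0.50). Exons of Gse1 on the opposite strand cover 2758 of the 4097 exonic bases of Gins2, so its count is uncertain. Gins1 had 37.3 and 42.3 CPM in dKO and 41.8 and 40.7 CPM in wt libraries (-0.05, 95% interval -0.39 to 0.29). Gins4, the GINS subunit with the highest CPM, had 65.3 and 62.9 CPM in dKO and 61.8 and 68.0 CPM in wt libraries (-0.02, SE 0.12). Gins3 was the lowest of all 39 genes, at 14.4 and 18.3 CPM in dKO and 14.6 and 16.8 CPM in wt libraries (0.06, SE 0.21). Mcm10 had 226 ± 28.6 CPM in dKO and 220.4 ± 28.0 CPM in wt, and Cdc45 had 57.5 ± 1.825 CPM in dKO and 59.2 ± 7.515 CPM in wt (SD, n = 2 each), with log2 fold changes of 0.03 and -0.04. Cdc45 shares 209 exonic bases with Ufd1 on the opposite strand.

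Cdc7 is the kinase that fires licensed origins, and Dbf4 is the regulatory subunit that it needs. Cdc7 had 42.2 and 42.9 CPM in dKO against 39.2 and 38 CPM in wt libraries, without overlap (0.14, 95% interval -0.17 to 0.45, adjusted p = 0.978). Dbf4 had 463 and 422 CPM in dKO and 437 and 418 CPM in wt libraries (0.05, SE 0.12). Per length, Dbf4 stood 4.71 to 5.34 times above Cdc7 in the 4 libraries, and 12.8 to 14.5 times when length was that of the principal transcript. The regulatory subunit was thus the more abundant transcript in both genotypes.

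Polymerase alpha with primase lays down the RNA-DNA primers of each strand, and it held the largest log2 fold change of the 39 genes. Pola1, its catalytic subunit, had 175 and 196 CPM in dKO against 147 and 152 CPM in wt libraries. The genotypes were separate, and the log2 fold change was 0.31 (SE 0.12, 95% interval 0.02 to 0.61), with an unadjusted p of 0.0411 and an adjusted p of 0.868 in edgeR. Pola2, its accessory subunit, had 85.1 and 85.5 CPM in dKO against 81.5 and 77.3 CPM in wt libraries (0.10, 95% interval -0.18 to 0.39). Prim2, the large primase subunit, had 57.5 and 63.7 CPM in dKO against 53.9 and 55.2 CPM in wt libraries (0.15, 95% interval -0.16 to 0.47, adjusted p = 0.977). Prim1, the catalytic primase subunit, overlapped between genotypes, at 89.0 and 94.0 CPM in dKO and 94.8 and 86.2 CPM in wt libraries (0.02, SE 0.12). In 3 of the 4 genes both dKO libraries were thus higher, against 23.1% of the 39 genes and 17.2% of tested genes. None of the 4 passed the test over all genes with genotype as the only term, and they were not tested as a set.

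Polymerase delta copies mainly the lagging strand and polymerase epsilon the leading strand. Their 2 catalytic subunits and Pold2 were lower in both dKO libraries, and Pole2 was higher, and none passed the test. Of all tested genes, 16.4% were lower and 17.2% higher in both dKO libraries. Pold1, catalytic subunit of delta, had 136 and 148 CPM in dKO against 149 and 154 CPM in wt libraries (-0.09, 95% interval -0.38 to 0.19). Pold2, an accessory subunit of delta, had 73.6 and 82.0 CPM in dKO against 82.7 and 105 CPM in wt libraries. This was the lowest log2 fold change of the 39 genes, at -0.27 (SE 0.16, 95% interval -0.66 to 0.12, adjusted p = 0.944), and the wt libraries differed from each other by 0.34 on the log2 scale. It rested on wt replicate 2: without that library it was -0.09, and that of Orc6, at -0.16, was lower. Without wt replicate 1 it was -0.44. Pole, catalytic subunit of epsilon, had 221 and 208 CPM in dKO against 235 and 245 CPM in wt libraries (-0.16, 95% interval -0.44 to 0.12, adjusted p = 0.962). An antisense gene, Gm15792, overlaps 78 of its exonic bases and had at most 31 counts. Pole2, its second subunit, had 46.7 and 48.7 CPM in dKO against 40.9 and 43.5 CPM in wt libraries (0.18, 95% interval -0.14 to 0.49, adjusted p = 0.967). Within epsilon the Pole2 share of the summed level per length was 45.0% and 47.6% in dKO and 40.3% and 40.7% in wt libraries.

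Replication protein A coats single-stranded DNA at the fork as a complex of large, middle and small subunits. Rpa1 (large) had 279 and 292 CPM in dKO and 282 and 294 CPM in wt libraries (-0.01, SE 0.11). Rpa2 (middle) had 158 and 179 CPM in dKO and 159 and 182 CPM in wt libraries (-0.01, SE 0.13). In both genes the replicates of a genotype were farther apart than the genotypes. Rpa3 (small) had 18.1 and 20.4 CPM in dKO and 15.6 and 18.7 CPM in wt libraries, with overlap (0.17, 95% interval -0.30 to 0.63).

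Ribonucleotide reductase, made of Rrm1 and Rrm2, makes deoxyribonucleotides, and thymidylate synthase (Tyms) makes the thymidine nucleotide. Tyms had 105 and 96.6 CPM in dKO against 88.9 and 81.6 CPM in wt libraries. The genotypes did not overlap, with a log2 fold change of 0.24 (SE 0.12, 95% interval -0.06 to 0.55, adjusted p = 0.921). Rrm2, the small subunit whose level limits the enzyme in S phase, had 345 and 424 CPM in dKO and 306 and 349 CPM in wt libraries. Its lower dKO library lay between the wt libraries (0.23, 95% interval -0.14 to 0.61, adjusted p = 0.959). Rrm1, the large subunit, had 196 and 210.5 CPM in dKO and 197 and 221 CPM in wt libraries (-0.04, SE 0.12). The Rrm2 to Rrm1 ratio per length was 6.98 and 8.01 in dKO against 6.19 and 6.28 in wt libraries, and 3.20 and 3.67 against 2.84 and 2.88 with principal transcripts. Among annotated pseudogenes aligned to a replication gene, Zfp125, which resembles a stretch of Rrm1 and of Tyms, had 83 to 113 counts. Every other had at most 1 count in any library. Such an alignment does not make each a copy of the gene: Vmn1r-ps144, which carries the name of another family, aligned to Tyms over 359 bases. A low count also does not show that no reads matched there.

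Timeless and Tipin form the fork protection complex, which couples the helicase to the polymerases. Tipin had 98.1 and 111 CPM in dKO against 116 and 119.8 CPM in wt libraries. Both dKO libraries were lower, by a log2 fold change of -0.17 (95% interval -0.47 to 0.13, adjusted p = 0.967). Timeless had 167 and 184 CPM in dKO and 175 and 178 CPM in wt libraries, a log2 fold change of -0.004 (95% interval -0.29 to 0.28).

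**Figure D3:**
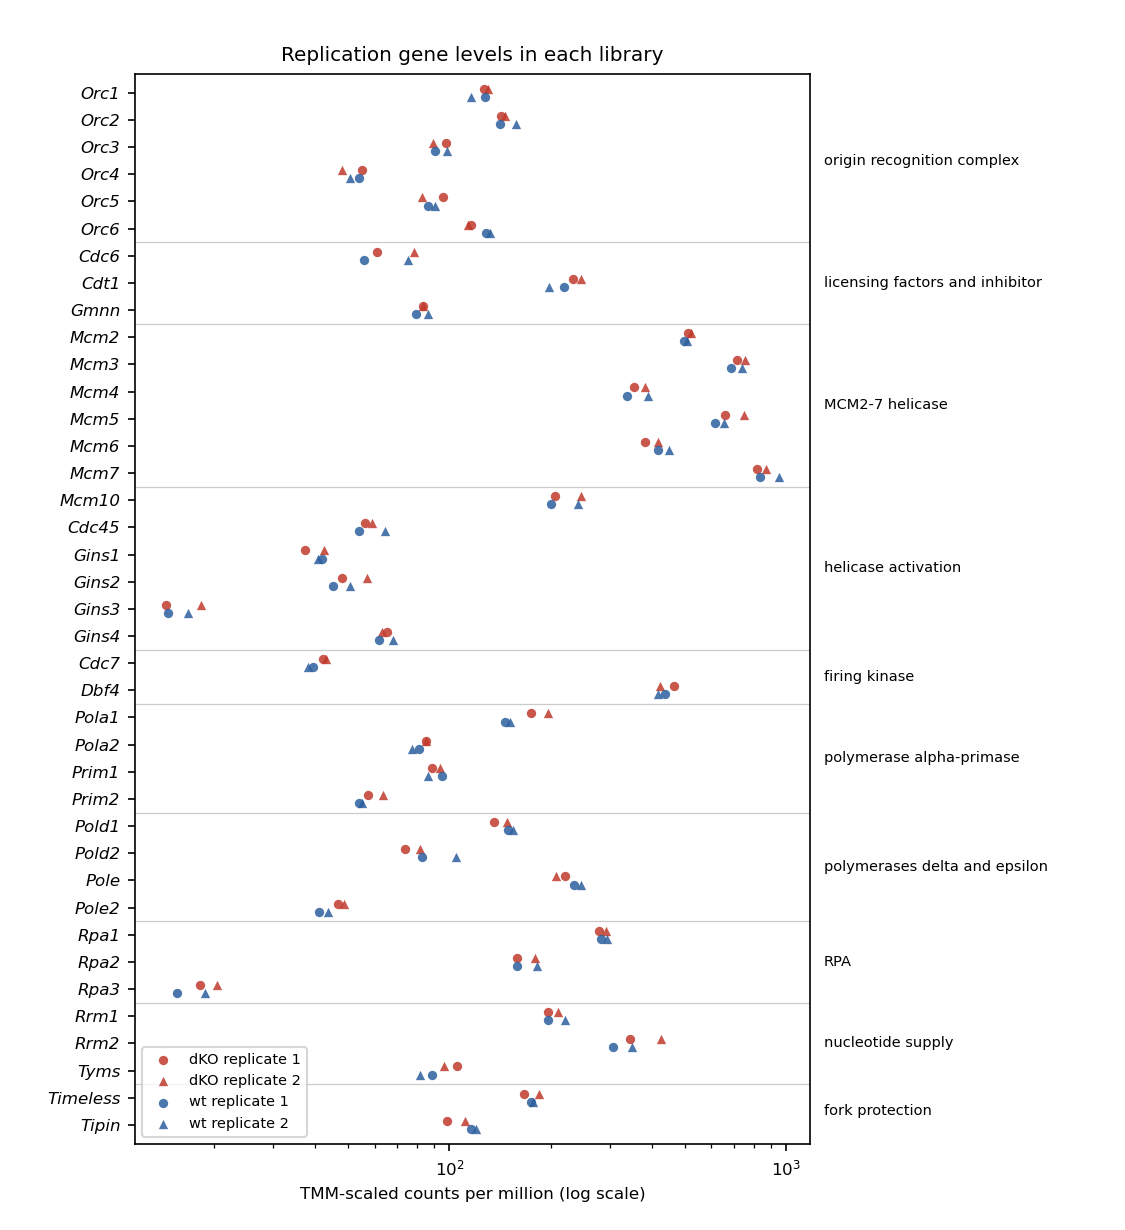
TMM-scaled CPM (log axis) of the 39 replication genes in each of the 4 libraries, grouped by role, with dKO in red, wt in blue, and circles and triangles for replicates 1 and 2. The MCM2-7 genes stand between 336 and 954 CPM, and for most genes the dKO and wt points lie side by side.

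Levels were also compared between genes, per kilobase (kb) of merged exons. Mcm7 was highest at a mean of 197 CPM per kb over the 4 libraries, followed by Mcm3 at 193 and Mcm5 at 168. Mcm7 stood above Mcm3 in only 2 of the 4 libraries, and Mcm3 stood above Mcm5 in all 4. Rrm2, at 128 CPM per kb, had rank 4 and was separate from its neighbours, whose ranges lay between 154 and 188 for Mcm5 and between 93.6 and 108 for Mcm4. At the low end stood Orc4 at 6.95 and Gins3 at 5.91 CPM per kb, with overlapping ranges. Over the whole order of 39 genes, the ranges of 29 of the 38 neighbouring pairs overlapped. Compared within each library, 15 of the 38 pairs had the same order in all 4 libraries, 6 of them with overlapping ranges, and 23 changed order between libraries. These values depend on the length taken for a gene, since merged exons include retained introns of minor transcripts. Lengths are from GENCODE, while the annotation used for counting is not stated, so counted and measured exons may differ. Exons shared with opposite-strand genes, as in Gins2 and Orc2, add to this uncertainty. These limits hold for the shares within complexes too. With principal transcripts Mcm7, Mcm3 and Mcm5 again stood at the top and Orc4 and Gins3 at the bottom, while Dbf4 went to rank 4, against rank 13 with merged exons.

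The balance of subunits within complexes was read from levels per length. Levels per length of the MCM2-7 subunits spanned 2.59 and 2.68-fold from highest to lowest in dKO and 2.65 and 2.96-fold in wt libraries. The Mcm5 share of the ring was 20.7% and 21.98% in dKO against 19.8% and 19.1% in wt libraries, and the Mcm6 share was 10.3% and 10.4% in dKO against 11.4% and 11.3% in wt libraries. ORC spanned a wider range, 6.37 and 7.16-fold in dKO and 7.19 and 7.88-fold in wt libraries, from Orc6 down to Orc4. Orc6 held 29.5% and 29.6% of the summed ORC level in dKO against 32.2% and 32.4% in wt libraries. In polymerase alpha-primase the Pola1 share was 31.6% and 32.9% in dKO and 27.7% and 29.6% in wt libraries. With principal transcripts it was 21.3% and 22.4% in dKO and 18.5% and 19.9% in wt libraries. The ratio of Pola1 to Pola2 was 1.69 to 2.16 over the 4 libraries with merged exons. With principal transcripts this ratio was 0.93 and 1.04 in dKO and 0.81 and 0.89 in wt libraries. Their order thus turned with the length taken, except in dKO replicate 2. The mean MCM2-7 level was 5.001 and 5.49 times the mean ORC level in dKO and 4.84 and 5.16 times in wt libraries. The shares printed here were separate between genotypes, and with merged exons so were those of Mcm3, Mcm7, Orc1, Gins2 and Prim1. Those of Mcm2, Mcm4, Orc2 to Orc5, Gins1, Gins3, Gins4, Pola2 and Prim2 overlapped. Separation is weak evidence with 2 libraries per genotype. In levels, 17.2% of all tested genes were higher and 16.4% lower in both dKO libraries than in both wt libraries. The shares of a complex also add up to a fixed total, so they are not independent of each other. The differences in shares were not tested, so a change in the balance of subunits between genotypes cannot be read from them.

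**Figure D4:**
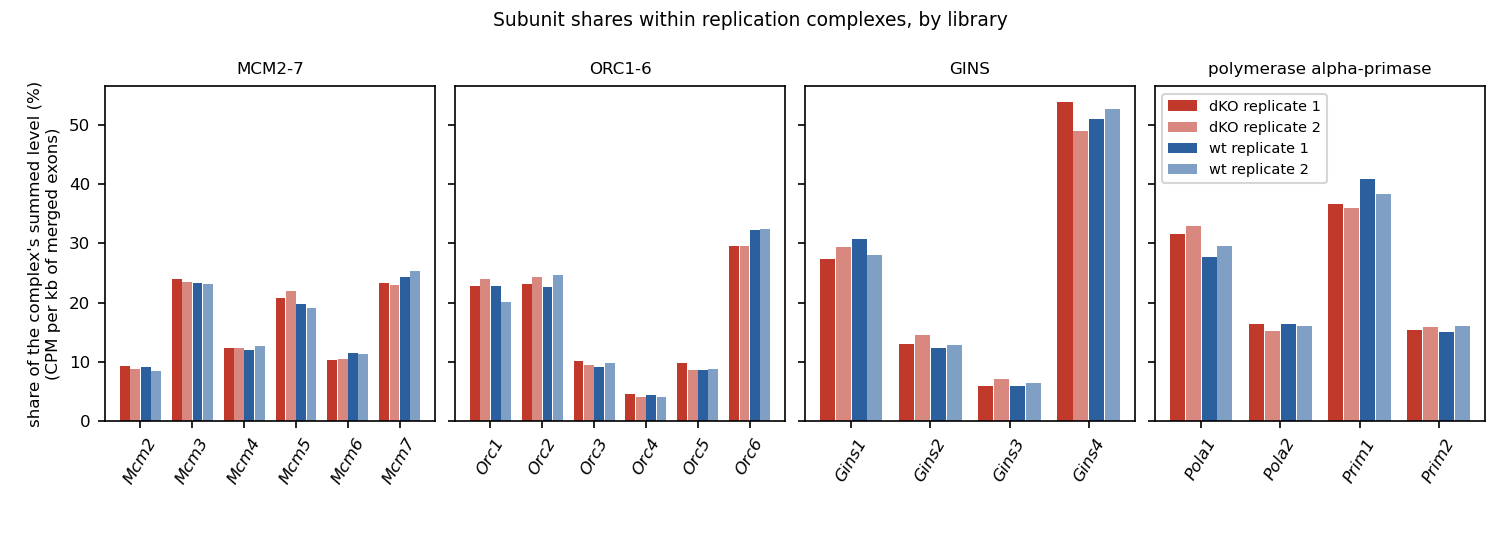
Share of each subunit in the summed level of its complex (percent, from CPM per kb of merged exons) for MCM2-7, ORC, GINS and polymerase alpha-primase, with a bar for each library, dKO in red and wt in blue. The order of subunits depends on the length taken, and the Pola1 share is 31.6% and 32.9% in dKO against 27.7% and 29.6% in wt libraries.

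The differences between replicates of a genotype mostly had the same sign across replication genes. Replicate 2 was above replicate 1 for 30 of 39 genes in dKO and for 30 of 39 in wt cells, against 49.5% and 50% of tested genes, and 24 genes had this order in both genotypes, against 35.9%. The median difference of replicate 2 minus replicate 1 was 0.08 in each genotype on the log2 scale. The highest was that of Cdc6, at 0.36 in dKO and 0.43 in wt cells. The summed level of the 39 genes was 7633 and 8104 CPM in dKO and 7487 and 7991 CPM in wt libraries. Mitosis markers summed higher in replicate 1, at 4667 and 4317 CPM in dKO and 4383 and 4204 CPM in wt libraries. The part of the cell cycle in these differences was not tested.

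**Figure D5:**
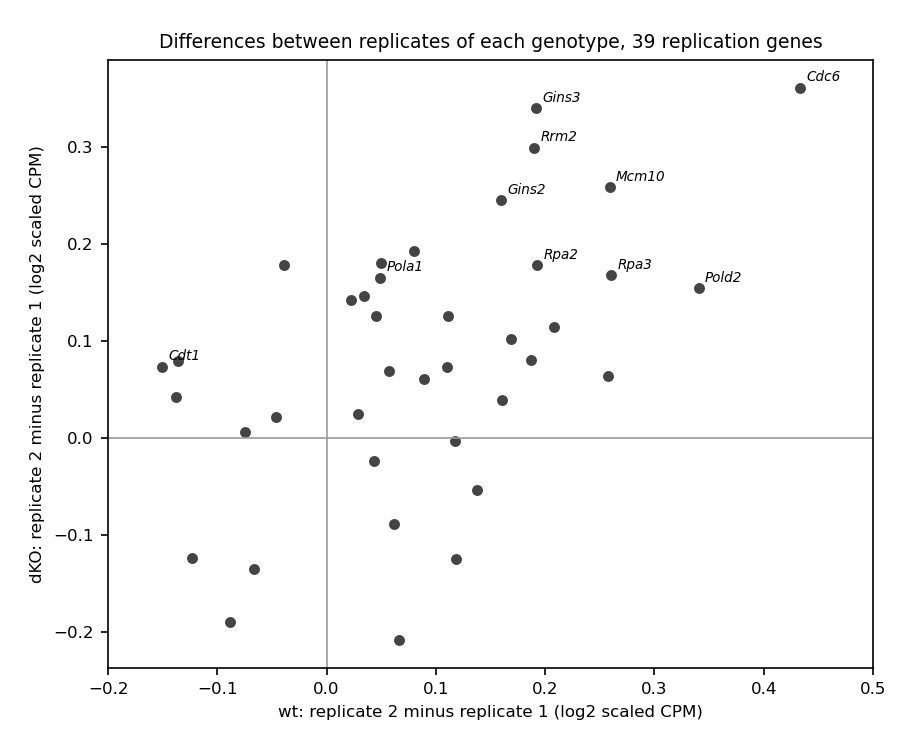
Difference in log2 scaled CPM between replicates 2 and 1, in wt cells (horizontal) and in dKO cells (vertical), for the 39 replication genes, with a point for each gene. Most points, 24 of 39, lie to the upper right of 0, and Cdc6 lies farthest out.

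Other genes of the replication pathway were read from the same test. Of 114 such genes 0 passed in either direction in edgeR, DESeq2 or limma-voom with genotype as the only term, and 0 of the 20 mitosis markers did. A replicate block in edgeR called 5 of the 114 higher and 4 lower, and 1 of the 20 higher, beside 9.26% of all tested genes. At an unadjusted p under 0.05 in edgeR there were 4 of the 114 and 1 of the 20, beside 5.57% of all tested genes. The median log2 fold change of the 114 genes was 0.02. The medians of the 8 lists lay between -0.04 (Okazaki fragment and topoisomerase genes) and 0.06 (E2F family and S phase control genes), and 63 values were positive and 51 negative. For the most abundant members of each list the log2 fold changes were as follows. Pcna, the sliding clamp, had 0.08 and Atad5, which unloads it, had 0.29. Among firing factors Rif1, which restrains origin timing, had 0.32, and Ticrr, which helps to load Cdc45, had -0.47 with an SE of 0.34. Pole4 and Rev3l, polymerase subunits, had -0.14 and 0.24. Lig1, which joins Okazaki fragments, had -0.04, and the topoisomerase Top2a had 0.14. The checkpoint kinase Atr had 0.17 and the helicase Blm had 0.02. Purine synthesis enzymes Gart and Paics had -0.05 and -0.17. The histone chaperone Nasp had 0.10 and the maintenance methyltransferase Dnmt1 had 0.11. Mybl2, an S phase transcription factor, had 0.12, and Ddb1, part of the ligase that destroys Cdt1, had -0.18. In the mitosis list, with a median of 0.05, Ccnb1 had 0.04 and Cdc20 had 0.08.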

How the data were processed

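Per the labels' protocols, total RNA was taken with Trizol and libraries were made with an Illumina TruSeq RNA kit. The values are raw counts per Ensembl gene, as the authors deposited them. The submitters' processing notes list TopHat2 2.0.6, TopHat and HTSeq, and give them no roles. No source used here states the build, the annotation or whether counting used strand. In the table the last gene of chromosome 1 ends at 197054592, against 195323493 in GENCODE M21 (GRCm38). GENCODE was therefore joined by gene ID only, for symbols (32919 genes) and lengths.

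Low counts were removed with filterByExpr, and libraries were scaled by TMM. The test was the robust quasi-likelihood F test of edgeR 4.0.16 in R 4.3.3, with genotype as its only term. Its p-values were adjusted over 14027 genes by the Benjamini-Hochberg method, and 0.05 was the threshold. It was first tested on simulated data. SEs come from the F statistic. Replicate differences are log2 of CPM plus 0.5. Alternatives were DESeq2 size factors, total counts, other filters, a replicate block, each library left out, DESeq2 1.42.0 and limma-voom (limma 3.58.1). Pseudogenes were aligned with blastn 2.17.0 (identity of at least 85% over at least 200 bases). Promoters are from RefSeq, and a match was sought in every window of a gene.

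All 39 genes are named. Values per library were given for every gene of a role group of up to 4, otherwise for those with the highest and lowest log2 fold change and level, and for genes with an unadjusted p under 0.05. The 2 genes with the highest CPM were named from each other replication list and the mitosis list. Genes of the stem cell, fibroblast and differentiation lists were named after their values were seen. The members and lists were chosen with earlier results of these data known. Counts of the 39 genes ran from 187 to 14556 per library.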

Additional observations from a re-analysis of the deposited data

How the results depend on the processing

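Over all genes the count of changed genes was 12 and went to 80 without a filter on low counts, 96 with DESeq2's Wald test (272 genes had no adjusted p), 5 with limma-voom and 18 to 27 with each library left out. With a replicate block it was 1299, or 9.26% of tested genes. The 39 genes held 1 of these, Pola1 (log2 fold change 0.31, adjusted p = 0.0288), the 114 other replication genes 9 and the 20 mitosis markers 1. Those of the 114 were Mcm8 (adjusted p = 0.000102), Poli (0.000491), Umps (0.0342) and Lin54 (0.024), with Atad5, Chtf18, Mthfd2, Rif1 and Ticrr. The mitosis marker was Bub1b (0.023). These calls, like that of Pola1, turn on the block. The deviations of the same-numbered libraries correlated at 0.65 across genes, but there are only 2 pairs and the labels do not say what a number shares, so the block was not used further. Without the block the smallest adjusted p of any of the 39 genes was 0.685 over the alternatives, and 0 of them passed in each. Their median log2 fold change lay between -0.04 (without wt replicate 1) and 0.06 with a library left out.

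The sign held in all 11 alternatives for 19 of the 39 genes. The largest absolute log2 fold change of any of the 39 genes in any alternative was 0.44. Other settings turned the sign of Orc5 (-0.004) and Gmnn (-0.0096) with total counts, and of Timeless (0.0022) without a filter. With each library left out, 20 genes changed sign, and their lowest and highest log2 fold changes were: Orc2 -0.133 to 0.0342, Orc3 -0.0766 to 0.0524, Orc4 -0.118 to 0.0745, Orc5 -0.0894 to 0.121, Cdc6 -0.123 to 0.319, Gmnn -0.0541 to 0.0699, Mcm3 -0.0113 to 0.105, Mcm4 -0.0846 to 0.129, Mcm7 -0.18 to 0.0127, Mcm10 -0.0958 to 0.172, Cdc45 -0.171 to 0.0947, Gins1 -0.14 to 0.0392, Gins3 -0.123 to 0.226, Gins4 -0.089 to 0.0556, Dbf4 -0.0161 to 0.12, Prim1 -0.0492 to 0.0814, Rpa1 -0.0463 to 0.0243, Rpa2 -0.111 to 0.0879, Rrm1 -0.125 to 0.0501, Timeless -0.0725 to 0.0687. A lone library was then assumed to vary like the other genotype's. The cause of these changes was not tested.

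Ranks by level per length moved by more than 3 places for 7 genes with the longest transcript and for 19 with the principal transcript, a length added after seeing the data. The share of replication promoters with an E2F motif was 16.2% on the forward strand alone and 21.6% before the start alone, against 2.04% and 3.20% for tested genes and 7.56% and 14.3% for the other replication genes. With 2 libraries per genotype, differences inside the printed intervals remain possible, and the intervals are not limits of detection. Zfp42, with a 95% interval of 0.87 to 1.48, did not pass the threshold in edgeR (adjusted p = 0.0886).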

Other observations

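Outside the 39 genes, 4 other genes of the replication lists had an unadjusted p under 0.05 in edgeR, and they were picked out after their values were seen. Mcm8, a relative of the MCM2-7 subunits that acts in recombination repair, had 35.6 and 29.8 CPM in dKO against 57.0 and 48.7 CPM in wt libraries. Its log2 fold change was -0.69 (SE 0.16, edgeR adjusted p = 0.562). Poli, a translesion polymerase, had 17.4 and 23.5 CPM in dKO against 26.8 and 39.3 CPM in wt libraries (-0.70, adjusted p = 0.844). Umps, an enzyme of pyrimidine synthesis, had 168 and 179 CPM in dKO against 135 and 146 CPM in wt libraries (0.30, adjusted p = 0.886). Lin54, a DNA-binding subunit of the DREAM complex that represses cell cycle genes, had 60.8 and 55.3 CPM in dKO against 47.4 and 42.9 CPM in wt libraries (0.36, adjusted p = 0.844). In each of the 4 the genotypes did not overlap, but they were picked by p in the same comparison, so this adds no support. Over all tested genes both dKO libraries lay above both wt libraries for 17.2% and below for 16.4%. None of the 4 passed over all genes in the fit with genotype alone. Of the mitosis markers Bub1b, a spindle checkpoint kinase also picked out after its value was seen, had 379 and 343 CPM in dKO against 296 and 280.4 CPM in wt libraries (0.32, adjusted p = 0.844).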
